A study of Mus musculus with 2 samples.

Results

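The respiratory chain is assembled from subunits of 2 genomes. The 105 genes described here, of 27998 listed, were every symbol that begins with mt-Nd, mt-Co, mt-Cyt, mt-Atp, Nduf, Cox4 to Cox8, Uqcr or Atp5, together with Sdha, Sdhb, Sdhc and Sdhd. The mitochondrial genome encodes 13 of them, 7 in complex I, 1 in complex III, 3 in complex IV and 2 in complex V. The nuclear genome encodes 92, of which 36 were placed in complex I, 8 among the assembly factors of complex I, 4 in complex II, 8 in complex III, 20 in complex IV and 16 in complex V. RNA was measured in single cells of mouse lung, captured on the 10x platform that counts the 3' ends of polyadenylated RNA by unique molecular identifiers (UMIs). The cells were sorted as positive for EpCAM and lacking Sca-1, CD24, CD45, CD34 and CD31, a gate for alveolar type 2 (AT2) epithelial cells, the surfactant-making cells of the alveolus. The groups were male mice labelled IP-/- (IPKO), where IP is the prostacyclin receptor encoded by Ptgir, and male mice labelled WT, with 1 library of each. The labels give no age, strain, treatment or number of animals.

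Complex I oxidises NADH, complex II succinate, complex III carries electrons on to cytochrome c, complex IV reduces oxygen, and complex V makes ATP from the proton gradient that complexes I, III and IV build. The mitochondrial genes are transcribed as long precursors from both strands and cut into separate RNAs, whereas the nuclear subunits are transcribed gene by gene, translated in the cytosol and imported. AT2 cells are rich in mitochondria, which serve surfactant lipid synthesis and secretion.

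After barcodes with fewer than 500 genes or more than 20% mitochondrial UMIs were left out, 8072 cells remained in the IPKO library and 6745 in the WT library. Cells with Sftpc, the surfactant protein C gene, at 10% or more of their UMIs were taken as AT2 cells. They numbered 7465 in the IPKO library, with a median of 17061 UMIs, and 6422 in the WT library, with a median of 18307. The other cells numbered 607 in the IPKO library (median 5422 UMIs) and 323 in the WT library (median 5465). The 10 AT2 markers other than Sftpc summed to 89336 counts per 1000000 UMIs (CPM) in IPKO AT2 cells and 89769 in WT AT2 cells, against 24061 in IPKO other cells and 23937 in WT other cells. All 10 were detected in each of the 4 sums, and the 9 T and NK cell markers summed to 6.23 CPM in IPKO AT2 cells and 2.87 in WT AT2 cells. Some lists of other types were higher there. Club markers summed to 3692 in IPKO and 5242 in WT, and AT1 markers to 1577 in IPKO and 1506 in WT. Macrophage and monocyte markers summed to 2547 in IPKO and 2556 in WT, of which Lyz1 alone held 2541 in IPKO and 2555 in WT. The highest of the remaining lists was the transitional one, at 624 in IPKO and 582 in WT. Ptgir went against the labels, with 314 UMIs in AT2 cells of the library labelled IPKO and 0 in those of the library labelled WT, and with 14 in IPKO other cells and 1 in WT other cells. The labels do not say which bases the allele lacks, and exchanged labels cannot be told apart from a change at the locus. IPKO and WT therefore name the libraries labelled so, and each direction below is between these labels and not shown to be between genotypes. The libraries shared 79 barcodes, of which 16 were kept in both. Of the other-cell UMIs, the shared barcodes held 0.257% in the IPKO library and 17.1% in the WT library. There, 5 cells of 67558 to 95128 UMIs, each with a barcode of both libraries, held 16.7%, and in those 5 cells Scgb1a1, the club cell secretoglobin, made up 54.8% of the UMIs. With 1 library of each genotype, no difference below has a replicate check and none was tested. Intervals are 95% and cover counting error only. For a gene not seen in nearly every cell, less RNA per cell cannot be told apart from fewer cells holding it.

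All 13 mitochondrially encoded members were lower in AT2 cells of the library labelled IPKO than in those of the library labelled WT. Together they held 40198 CPM in IPKO AT2 cells and 54353 in WT AT2 cells, while the 92 nuclear members together held 14522 in IPKO AT2 cells and 14048 in WT AT2 cells. The median log2 ratios (IPKO over WT) were -0.62 over the 7 complex I members, -0.48 for the complex III member, -0.44 over the pair of complex V and -0.34 over the 3 of complex IV. At a threshold of 0.32 on the log2 scale, a ratio of 5 to 4, 13 of 13 were lower, where 4.74% of all 8500 genes measured were lower and 8.4% were higher. A gene counted as measured when its mean over the sums compared was at least 5 CPM.

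Among the complex I members, mt-Nd2, a membrane-arm subunit, stood at 3399 CPM in IPKO AT2 cells and 5436 in WT AT2 cells. The short mt-Nd3 stood at 694 in IPKO and 1122 in WT, and mt-Nd4l at 345 in IPKO and 562 in WT. These 3 had the lowest ratios of all 13, at -0.68, -0.69 and -0.70 on the log2 scale. The other complex I members followed, with mt-Nd4 at 3381 in IPKO and 4788 in WT (-0.50), mt-Nd1 at 2278 in IPKO and 3167 in WT (-0.48), and mt-Nd5 at 871 in IPKO and 1190 in WT (-0.45). The subunit gene mt-Nd6, the only member read from the opposite strand, had few UMIs, 26.8 CPM in IPKO and 41.2 in WT. Its log2 ratio was -0.62 (interval -0.68 to -0.56) and lay between those of mt-Nd2 and mt-Nd4, which belong to another precursor. The use of strand in counting is not given, so its UMIs cannot be told apart from RNA of the strand opposite.

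In complexes III to V the ratios lay between -0.50 and -0.34, and all members but mt-Atp8 stood above 4000 CPM. The cytochrome b gene mt-Cytb stood at 4199 CPM in IPKO AT2 cells and 5861 in WT AT2 cells (-0.48). The catalytic subunit genes of complex IV followed, mt-Co1 at 6819 in IPKO and 8651 in WT (-0.34), and mt-Co2 at 5220 in IPKO and 6607 in WT (-0.34). The third complex IV gene, mt-Co3, stood at 6337 in IPKO and 8293 in WT (-0.39), and mt-Atp6, of the proton channel of complex V, at 6509 in IPKO and 8464 in WT (-0.38). The small complex V gene mt-Atp8 stood at 120 in IPKO and 170 in WT, with a log2 ratio of -0.50 (interval -0.53 to -0.47). Along the genome the ratios followed no order of position: mt-Nd2 and mt-Co1 are neighbours among the members, at -0.68 and -0.34, and mt-Co3 and mt-Nd3 are neighbours too, at -0.39 and -0.69.

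**Figure D1:**
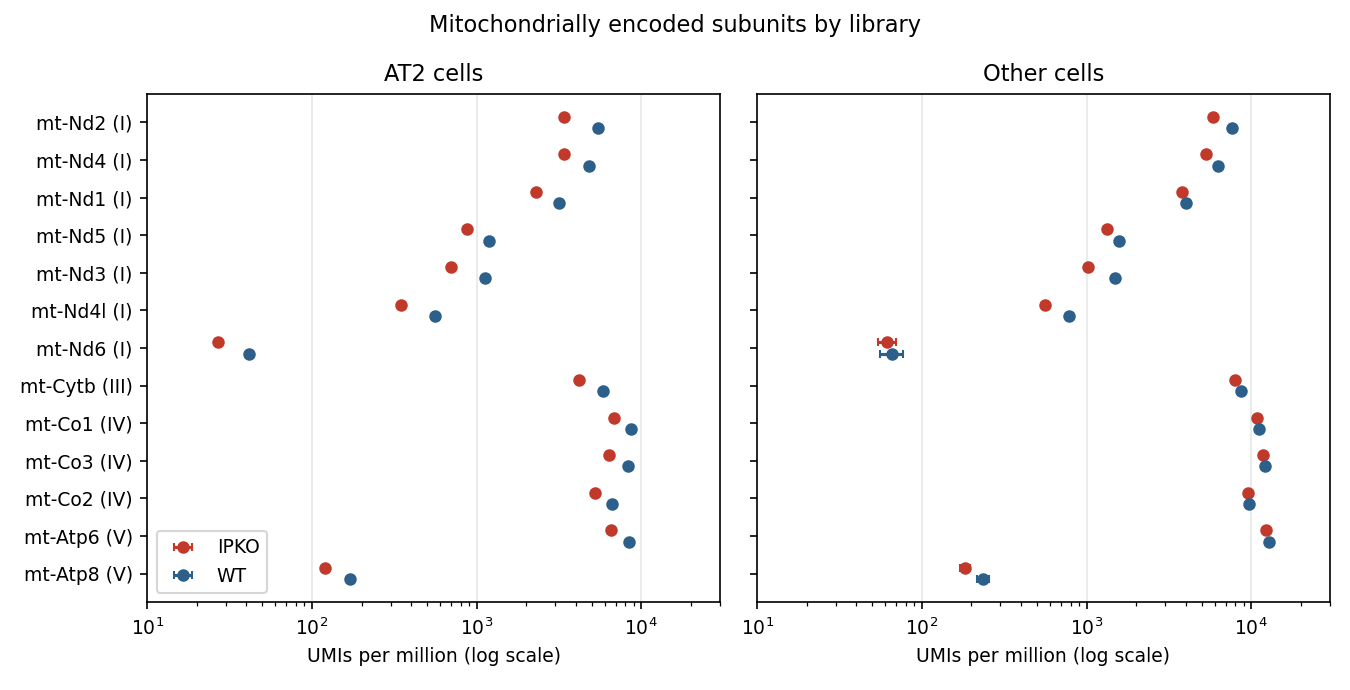
Level of each mitochondrially encoded member, in CPM on a log axis, in AT2 cells (left) and other cells (right) of the IPKO library (red) and the WT library (blue), with 95% Poisson intervals that are mostly smaller than the points. In AT2 cells every IPKO point lies left of its WT point, from 26.8 against 41.2 for mt-Nd6 to 6819 against 8651 for mt-Co1, and in other cells the pairs of complex IV and mt-Atp6 nearly coincide.

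The genes mt-Atp8 and mt-Atp6, and likewise mt-Nd4l and mt-Nd4, overlap on the same strand and are carried by a shared mature mRNA, so their values show how far a ratio differs between places along the same RNA. The ends and starts of the reading frames are shown because the shared bases, in capitals, cannot be assigned to 1 gene of a pair; they are given 5' to 3' from the plus strand of the mitochondrial chromosome in GRCm38, at chrM:7867-7969 for mt-Atp8, chrM:7927-8029 for mt-Atp6, chrM:10107-10173 for mt-Nd4l and chrM:10167-10233 for mt-Nd4.
mt-Atp8: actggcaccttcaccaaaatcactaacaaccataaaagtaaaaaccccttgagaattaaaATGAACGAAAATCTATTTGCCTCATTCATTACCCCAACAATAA
mt-Atp6: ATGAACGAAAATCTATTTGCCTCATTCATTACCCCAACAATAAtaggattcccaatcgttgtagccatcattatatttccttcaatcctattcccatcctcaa
mt-Nd4l: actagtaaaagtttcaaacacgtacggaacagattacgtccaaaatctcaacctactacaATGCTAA
mt-Nd4: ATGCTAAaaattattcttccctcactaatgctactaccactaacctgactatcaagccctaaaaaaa
The overlap spans 43 bases in the mt-Atp8 pair and 7 in the mt-Nd4l pair. Within each pair the upstream gene held the fewer UMIs and the lower ratio: mt-Atp8 at -0.50 against mt-Atp6 at -0.38, and mt-Nd4l at -0.70 against mt-Nd4 at -0.50. The counting intervals did not overlap in either pair, so genes on the same mRNA differed by 0.12 and 0.20 on the log2 scale. Several of the gaps between complexes and between members given above are no larger than these.

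The nuclear members did not share the lower level. Of the 92, 85 were measured in AT2 cells, with a median log2 ratio (IPKO over WT) of 0.07, where the median of all genes was 0.06. At the threshold of 0.32, 3 were higher and 2 lower (3.53% and 2.35% of the 85), below the shares over all genes. By complex the medians were 0.09 over 36 subunits of complex I, 0.22 over 6 assembly factors, 0.11 over 4 subunits of complex II, -0.01 over 8 of complex III, 0.01 over 16 of complex IV and 0.06 over 15 of complex V. The 7 not measured were Ndufaf5, Ndufaf6 and Atp5s, at 3.57 to 4.79 CPM, and Cox7b2, Cox8b, Cox8c and Ndufa4l2, at 0.05 or less.

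The 3 nuclear members that were higher in AT2 cells of the library labelled IPKO belong to different steps of the chain. Ndufaf4, an assembly factor of complex I, stood at 15.5 CPM in IPKO and 10.5 in WT, a log2 ratio of 0.57 (interval 0.46 to 0.67). Ndufa6, a peripheral-arm subunit of complex I, stood at 230 in IPKO and 174 in WT (0.40, interval 0.38 to 0.43). Cox7a2l, which joins complexes III and IV into supercomplexes, stood at 314 in IPKO and 243 in WT (0.37, interval 0.35 to 0.39). The 2 that were lower were Ndufa3, a membrane-arm subunit of complex I, at 115 in IPKO and 150 in WT (-0.38, interval -0.41 to -0.35), and Cox6a2, a tissue isoform of complex IV, at 154 in IPKO and 197 in WT (-0.35, interval -0.38 to -0.33). At 1.5-fold none of these 5 passed, against 4 of the 13 mitochondrial members. Shares of all genes at 1.5-fold were not computed, so these counts show no trait of the members. With trimmed-mean factors Cox7a2l was at 0.30, below the threshold of 0.32. Ndufa3 and Cox6a2 lie on chromosome 7, which also carries Ptgir, at distances of 13.3 and 111 megabases from it (GENCODE vM21, GRCm38). The other members between 8.71 and 13.7 megabases from Ptgir were Cox6b2 at -0.12, Atp5sl at -0.25, Cox7a1 at -0.15 and Cox6b1 at 0.01. The measured members nearest to Cox6a2 on the chromosome were Ndufab1, 105 megabases from Ptgir, at 0.25, Uqcrc2, at 104 megabases, at 0.01, and Ndufc2, at 80.5 megabases, at 0.20.

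The most abundant nuclear subunits differed little between the libraries. Cox4i1, the regulatory subunit of complex IV, stood at 636 CPM in IPKO AT2 cells and 579 in WT AT2 cells, and Cox8a, its smallest subunit, at 550 in IPKO and 548 in WT. In complex V, Atp5e, of the central stalk, stood at 470 in IPKO and 532 in WT, and Atp5h, of the peripheral stalk, at 419 in IPKO and 388 in WT. In complex III, Uqcrh, the hinge protein, stood at 408 in IPKO and 353 in WT, and Uqcr11 at 272 in IPKO and 293 in WT. In complex I, Ndufb11 stood at 303 in IPKO and 273 in WT, and Ndufa7 at 288 in IPKO and 277 in WT. None of these 8 passed the threshold. Complex II, which has no mitochondrially encoded subunit, was the lowest complex in level, with Sdha, the flavoprotein, at 81.0 in IPKO and 75.7 in WT, Sdhc, a membrane anchor, at 66.6 in IPKO and 71.2 in WT, Sdhb, the iron-sulphur subunit, at 51.7 in IPKO and 47.7 in WT, and Sdhd, the other anchor, at 45.9 in IPKO and 38.6 in WT. Because the assay counts 3' ends, these levels do not scale with transcript length.

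**Figure D2:**
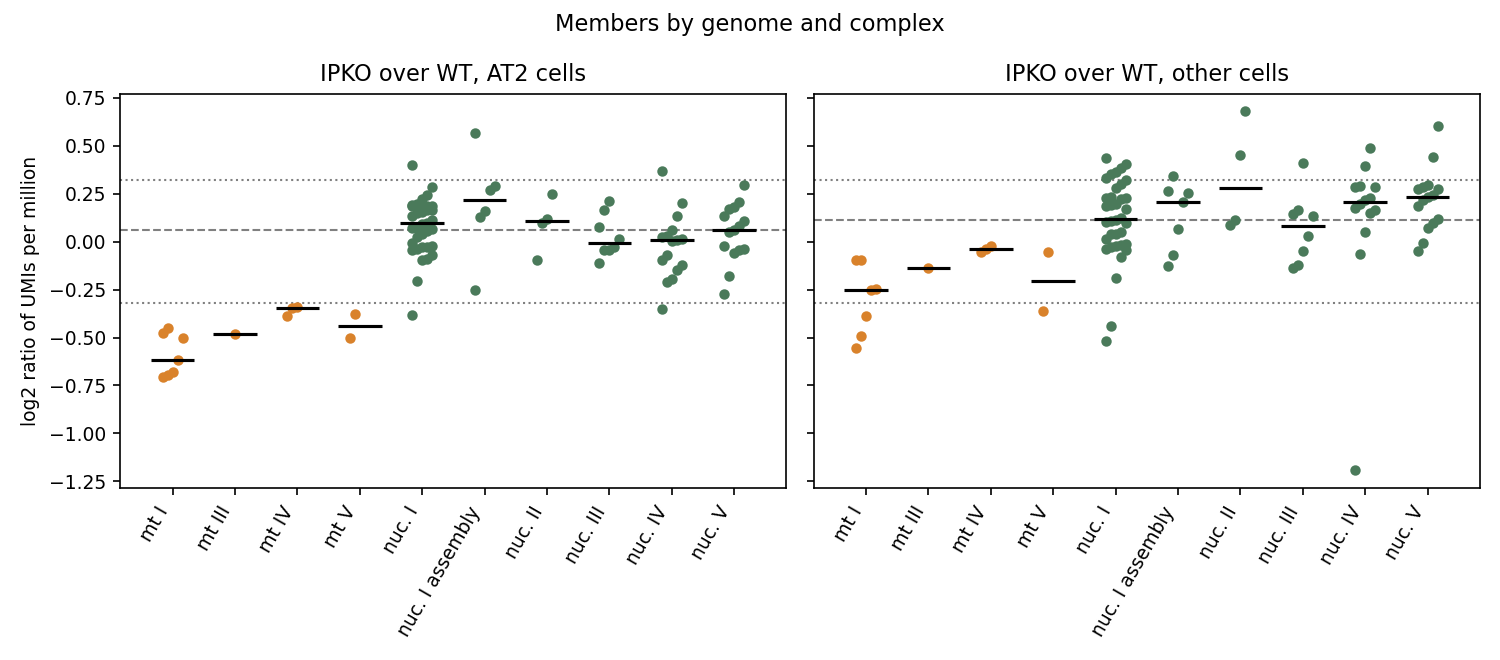
Log2 ratio of CPM, IPKO over WT, for each measured member in AT2 cells (left) and other cells (right), by genome (mt, orange; nuclear, green) and complex, with a bar at the median of each column, a dashed line at the median of all genes and dotted lines at the threshold of 0.32 either way. In AT2 cells the mitochondrial columns lie from -0.70 to -0.34 and the nuclear medians from -0.01 to 0.22, and the lowest nuclear point in other cells is Cox6a2 at -1.19.

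The ratio of mitochondrial to nuclear UMIs within each complex sets the genomes side by side in the same cells. Over all complexes it was 2.77 in IPKO AT2 cells and 3.87 in WT AT2 cells. By complex it was 2.29 in IPKO and 3.60 in WT for complex I, 2.90 in IPKO and 4.17 in WT for complex III, 4.47 in IPKO and 5.79 in WT for complex IV, and 1.74 in IPKO and 2.32 in WT for complex V. All 4 complexes were thus lower in the library labelled IPKO, and complex IV held the most mitochondrial UMIs for its nuclear ones in both libraries.

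Single AT2 cells varied far more in the mitochondrial sum than in the nuclear sum. With every cell thinned to 3000 UMIs, which left 7444 IPKO and 6404 WT cells, the mitochondrial members averaged 121 UMIs in IPKO cells (SD 54.2 over cells) and 164 in WT cells (SD 55.7). The nuclear members averaged 43.2 in IPKO cells (SD 8.86) and 41.7 in WT cells (SD 9.24). The variance over the mean was 24.2 in IPKO and 18.9 in WT for the mitochondrial sum, and 1.82 in IPKO and 2.05 in WT for the nuclear sum, where counting alone gives about 1. Of the thinned cells, 99.9% in IPKO and 99.9% in WT had a UMI of mt-Co1, and 99.2% in IPKO and 99.8% in WT had one of mt-Nd2. Members of few UMIs were seen in fewer cells, mt-Nd4l in 62.5% in IPKO and 78.6% in WT. Across cells, the shares of mitochondrial complex I and complex IV went together, with Pearson's r of 0.93 in IPKO and 0.92 in WT. Cells with a higher mitochondrial share had a somewhat lower nuclear share of their remaining UMIs, with r of -0.27 in IPKO and -0.29 in WT over all UMIs, and -0.20 in IPKO and -0.22 in WT after thinning. These r values are across cells of 1 library, which share that library and its depth, and describe these cells only.

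The make-up of the mitochondrial UMIs differed between the libraries as well as their amount. The share of mt-Nd2, mt-Nd3 and mt-Nd4l, the 3 members with the lowest ratios, among all UMIs of the 13 members was 10.7% to 11.3% in IPKO AT2 cells over 5 bands of mitochondrial share, and 12.1% to 13.4% in WT AT2 cells over the same bands. The share of mt-Co1, mt-Co2, mt-Co3 and mt-Atp6 was 61.6% to 62.9% in IPKO AT2 cells and 58.5% to 59.5% in WT AT2 cells. The ranges of the libraries did not overlap in either share, so cells with the same mitochondrial content still differed in make-up. These genes were grouped after their ratios were seen, and the shares restate those ratios within bands.

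Barcodes that the filters left out showed the same split. In barcodes with fewer than 500 genes, where mitochondrial UMIs made up 58.8% of the IPKO total and 72.6% of the WT total, mt-Nd2, mt-Nd3 and mt-Nd4l held 11.5% of the mitochondrial UMIs in IPKO and 13.4% in WT. In barcodes with more than 20% mitochondrial UMIs they held 11.5% in IPKO and 13.6% in WT. In other cells the share was 7.72% in IPKO and 12.6% in WT in the lowest band and 11.04% in IPKO and 13.3% in WT in the highest. The lower share in IPKO was therefore found in AT2 cells, other cells and the left-out barcodes alike. The left-out barcodes under 500 genes held 14.99% of all mitochondrial UMIs of the IPKO library and 17.6% of those of the WT library, and how far RNA free in the suspension entered the cells' counts was not tested.

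**Figure D3:**
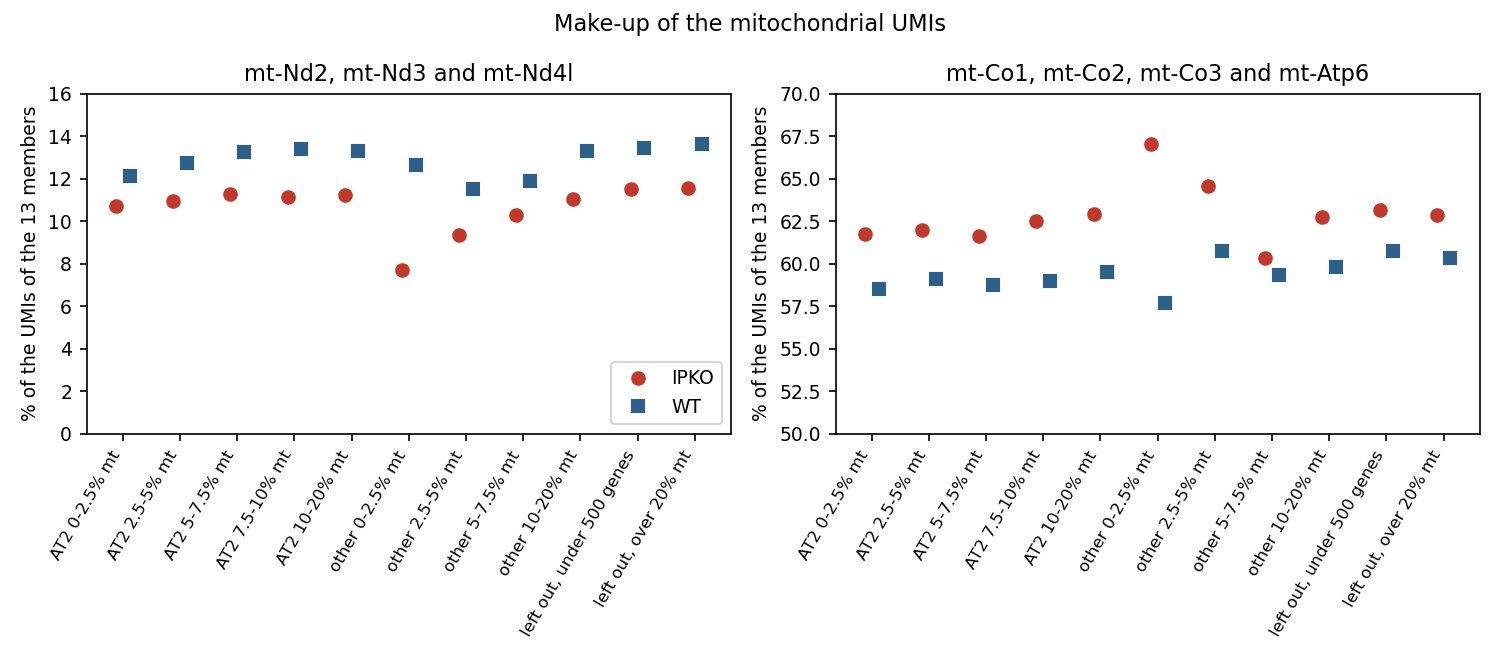
Share of the UMIs of the 13 mitochondrial members held by mt-Nd2, mt-Nd3 and mt-Nd4l (left, axis from 0) and by mt-Co1, mt-Co2, mt-Co3 and mt-Atp6 (right, axis from 50) in bands of mitochondrial share of AT2 and other cells and in barcodes left out, for the IPKO library (red circles) and the WT library (blue squares). The IPKO share is the lower of each pair on the left and the higher on the right, as in AT2 cells, where 10.7% to 11.3% stand against 12.1% to 13.4% on the left; the band of 7.5% to 10% in other cells is not drawn, as it held under 20 WT cells.

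In other cells the mitochondrial difference between the libraries labelled IPKO and WT was smaller. The 13 members held 70536 CPM in IPKO other cells and 76752 in WT other cells, and the median log2 ratio was -0.14. At the threshold of 0.32, 4 of the 13 were lower and 0 higher, where 15.2% of 10490 genes measured in other cells were lower and 30.4% higher. The 4 were mt-Nd3, at 1016 in IPKO and 1489 in WT (-0.55), mt-Nd4l, at 560 in IPKO and 787 in WT (-0.49), mt-Nd2, at 5865 in IPKO and 7669 in WT (-0.39), and mt-Atp8, at 183 in IPKO and 235 in WT (-0.36). The complex IV members differed least, with mt-Co2 at 9550 in IPKO and 9709 in WT (-0.02). Without the barcodes found in both libraries the median was -0.32 and with at most 10% mitochondrial UMIs it was -0.01, so its size rested on which cells were summed.

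The nuclear members in other cells had a median log2 ratio of 0.17 over 84 measured, beside 0.11 for all genes, with 14 higher (16.7%) and 3 lower (3.57%) at the threshold of 0.32, smaller shares than over all genes. Sdhb, the iron-sulphur subunit of complex II, stood at 73.7 CPM in IPKO other cells and 46.0 in WT other cells (0.68, interval 0.36 to 1.01). Atp5c1, the rotating shaft of complex V, stood at 161 in IPKO and 106 in WT (0.60, interval 0.39 to 0.82), and Cox7a2l at 273 in IPKO and 195 in WT (0.49, interval 0.33 to 0.65). The 3 lower were Cox6a2, at 50.3 in IPKO and 115 in WT (-1.19, interval -1.46 to -0.93), Ndufa3, at 95.5 in IPKO and 137 in WT (-0.52, interval -0.73 to -0.30), and Ndufs1, the large iron-sulphur subunit of complex I, at 23.6 in IPKO and 32.0 in WT (-0.44, interval -0.89 to 0.01). Ndufa6, Cox7a2l, Ndufa3 and Cox6a2, chosen here by their ratios in AT2 cells, had ratios of the same sign in other cells. The 10 AT2 markers summed to 24061 CPM in IPKO other cells and 23937 in WT other cells. The shared sign is therefore no separate check, and the part of AT2 RNA in it was not tested. Ndufaf4 had 80 UMIs (20.3 CPM) in IPKO other cells and 54 (22.2 CPM) in WT other cells, and its log2 ratio of -0.13 (interval -0.64 to 0.40) gives no direction. The make-up of the other cells differed between the libraries: T and NK cell markers summed to 2407 CPM in IPKO and 214 in WT, and club cell markers to 23306 in IPKO and 116069 in WT. Scgb1a1 alone held 19216 of the club sum in IPKO and 106543 in WT. In WT the 5 deep cells with barcodes of both libraries, 54.8% Scgb1a1, are among the cells summed. The median of the 8 club markers was 498 in IPKO and 1719 in WT, and Bpifa1 went the other way, at 388 in IPKO and 34.9 in WT. The part of these cells in the ratios was not tested.

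Against other cells, AT2 cells had a lower share of mitochondrial UMIs in both libraries, though more of them per cell. Per cell the 13 members had 706 UMIs in AT2 cells and 458 in other cells of the IPKO library, and 1031 in AT2 cells and 579 in other cells of the WT library. The 13 members stood at 40198 CPM in AT2 cells and 70536 in other cells of the IPKO library, and at 54353 in AT2 cells and 76752 in other cells of the WT library. All 13 log2 ratios (AT2 over other) were below -0.32, from -1.20 to -0.55 in the IPKO library, where 50.6% of 9915 genes were lower and 14.8% higher, and from -0.67 to -0.35 in the WT library, where 45.2% of 9575 genes were lower and 15.3% higher. The median of the 13 was -0.73 in the IPKO library, beside -0.33 for all genes, and -0.48 in the WT library, beside -0.26 for all genes. This direction rested on cells with more than 10% mitochondrial UMIs: with at most 10% allowed the medians turned to 0.35 in the IPKO library and 0.78 in the WT library. The count depended on the scaling too: with trimmed-mean factors 5 of 13 were lower in the IPKO library and 0 of 13 in the WT library, and the shares over all genes were not recomputed.

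The nuclear members had AT2 over other medians of 0.07 over 85 measured in the IPKO library, with 10 higher and 10 lower (11.8% each, against 14.8% and 50.6% of all genes), and 0.16 over 83 in the WT library, with 21 higher and 7 lower (25.3% and 8.43%, against 15.3% and 45.2% of all genes). The sign of these medians rested on which cells were summed. With at most 10% mitochondrial UMIs they were -0.30 in the IPKO library and -0.23 in the WT library. Without clusters 2, 3, 5 and 11 of the other cells they were -0.44 in the IPKO library and -0.34 in the WT library. The assembly factors of complex I had a median of -0.52 over 7 in the IPKO library, beside -0.33 for all genes, with 5 of them lower (71.4%, against 50.6% of all genes). In the WT library their median was -0.59 over 6, beside -0.26 for all genes, with 4 lower (66.7%, against 45.2%). The other nuclear members had medians of 0.09 over 78 in the IPKO library and 0.22 over 77 in the WT library. Atp5sl, whose product assembles the membrane arm of complex I despite its symbol, stood at 5.10 CPM in AT2 cells and 14.2 in other cells of the IPKO library (-1.48) and at 6.08 in AT2 cells and 12.3 in other cells of the WT library (-1.02). Ndufb11, a membrane-arm subunit, lay at the other end, at 303 in AT2 cells and 187 in other cells of the IPKO library (0.70) and at 273 in AT2 cells and 159 in other cells of the WT library (0.78). The split of nuclear members into higher and lower depends on the scaling: with trimmed-mean factors 72 were higher and 1 lower in the IPKO library and 72 higher and 2 lower in the WT library, and with Sftpc left out of the totals 45 were higher and 3 lower in the IPKO library and 59 higher and 3 lower in the WT library. Each such scaling moves the ratios of all genes by the same amount. The shares over all genes were not recomputed, so these counts show no trait of the members.

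The respiratory chain RNA of other cells was graded by their mitochondrial share. Those under 5% mitochondrial UMIs, 320 in the IPKO library and 148 in the WT library, held 18977 nuclear-member UMIs per 1000000 non-mitochondrial UMIs in IPKO and 16912 in WT, above the 15130 of IPKO AT2 cells and 14855 of WT AT2 cells. These totals include Sftpc, at a median of 20.8% of UMIs in IPKO AT2 cells and 21.1% in WT AT2 cells. In other cells the median was 2.17% in IPKO and 2.19% in WT. Sftpc in the totals thus lowers the AT2 figures more than those of other cells. The order against AT2 cells is given for these totals only and shows no lower level in AT2 cells. It was not recomputed with Sftpc left out. Other cells of 5% to 10%, 64 in IPKO and 40 in WT, held 13343 in IPKO and 14483 in WT, with Malat1, a nuclear-retained RNA, at 43952 CPM in IPKO and 44171 in WT. Those over 10%, 223 in IPKO and 135 in WT, held 6106 in IPKO and 5787 in WT, and their Malat1 was at 67142 CPM in IPKO and 67141 in WT, against 16654 in IPKO AT2 cells and 17836 in WT AT2 cells. High mitochondrial and low nuclear respiratory chain RNA thus came together with high Malat1, in both libraries, and the part of damaged cells in this was not tested. AT2 cells showed a smaller slope of the same kind, with 15753 nuclear-member UMIs per 1000000 non-mitochondrial UMIs in the lowest band of mitochondrial share and 11519 in the highest in the IPKO library, and 16269 in the lowest and 12134 in the highest in the WT library.

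Clusters of the other cells, built without the 105 genes, followed this in part. In 4 clusters, with 299 IPKO and 171 WT cells, the median mitochondrial share was above 10%, and their nuclear members ranged from 3889 to 9193 per 1000000 non-mitochondrial UMIs in the IPKO library and from 3689 to 7062 in the WT library. Their median Sftpc share was 8.33% in cluster 2, 7.79% in cluster 11, 5.80% in cluster 3 and 2.89% in cluster 5. The AT2 marker Lamp3 was among the leading genes of cluster 2, and Slc34a2 among those of cluster 11. Whether these are AT2 cells under the Sftpc cut was not tested. Ciliated-like cells, whose beating cilia use ATP, held the most of the named classes, 27728 in 13 IPKO cells and 25393 in 3 WT cells. Unnamed cluster 4 held 28705 in 14 IPKO cells and 23497 in 7 WT cells. Unnamed cluster 10 held 26835 in 12 IPKO cells and 30273 in 4 WT cells, so such levels were not particular to ciliated-like cells. Macrophage and monocyte-like cells held 19288 in 53 IPKO cells and 21899 in 14 WT cells, T and NK-like cells 17159 in 60 IPKO cells and 19749 in 10 WT cells, and B-like cells 16991 in 33 IPKO cells and 16222 in 5 WT cells. The T and NK-like class was cluster 1, with Cd3d, Cd3g and Cd3e among its leading genes, and NK cells were not shown in it. Cluster 0, led by Ncr1 and Gzma and also high in Nkg7, stays unnamed outside that class and held 22907 in 20 IPKO cells. Neutrophil-like cells, which rely on glycolysis, held the least of the named classes in both genomes, 9922 with 1.10% mitochondrial UMIs in 10 IPKO cells and 8541 with 0.754% in 6 WT cells. The order of the 5 named classes was the same in both libraries, and the counting intervals of neighbouring classes overlapped only for T and NK-like and B-like cells in the IPKO library. These intervals leave out variation between the few cells of a class, so the order is a description only. The macrophage and monocyte-like class joined cluster 8, with 40 IPKO and 4 WT cells, and cluster 12, with 13 IPKO and 10 WT cells. Its mix thus differed between the libraries.

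**Figure D4:**
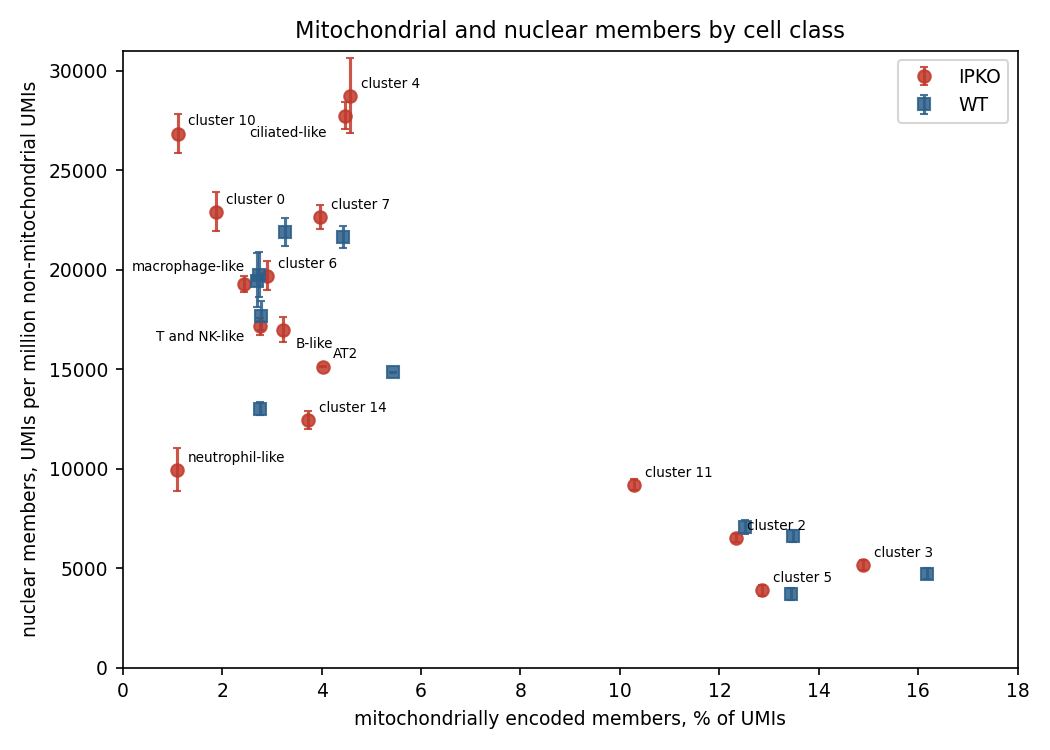
Nuclear members, in UMIs per 1000000 non-mitochondrial UMIs, against the mitochondrially encoded members as a percent of all UMIs, for AT2 cells and each cluster or named class of other cells with 10 cells or more in a library, IPKO in red circles (labelled) and WT in blue squares, with 95% Poisson intervals. Clusters 2, 3, 5 and 11 lie at the lower right, between 3689 and 9193, neutrophil-like cells at the lower left and ciliated-like cells near the top, at 27728 in the IPKO library.

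Complex IV has subunits with tissue isoforms, and AT2 cells held an isoform best known from heart and skeletal muscle. Cox6a2 (ENSMUSG00000030785, chr7:128205435-128206387, minus strand) stood at 154 CPM in IPKO AT2 cells and 197 in WT AT2 cells, close to the widely expressed Cox6a1 at 186 in IPKO and 199 in WT. Of AT2 cells thinned to 3000 UMIs, 33.6% in IPKO and 38.8% in WT had a Cox6a2 UMI, and 42.4% in IPKO and 44.6% in WT had one of Cox6a1. Both were seen in 13.97% of IPKO cells and 16.9% of WT cells, Cox6a2 without Cox6a1 in 19.6% of IPKO cells and 21.8% of WT cells, and neither in 38.0% of IPKO cells and 33.6% of WT cells. Without thinning, 75.2% of IPKO AT2 cells and 82.0% of WT AT2 cells had a Cox6a2 UMI. In the T and NK-like and B-like classes, which should lack it, 1 of 87 thinned IPKO cells (1.15%) and 0 of 14 WT cells had one. The cells of these classes had a median of 5595 UMIs before thinning in IPKO, and the unnamed cluster 0 was not among them. The share in AT2 cells was therefore above that background.

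Outside AT2 cells, Cox6a2 was highest in cluster 7, which was led by Sprr1a, Ndnf and Sfn and stays unnamed. There it stood at 409 CPM in 24 IPKO cells (98 UMIs, interval 332 to 498) and 718 in 21 WT cells (202 UMIs, interval 623 to 825). Cluster 7 also held 7.498 Cox6a2 UMIs per 1000 Sftpc UMIs in IPKO and 13.3 in WT, against 0.736 in IPKO AT2 cells and 0.931 in WT AT2 cells, and 0.591 in IPKO T and NK-like cells, where a single UMI was found. The other muscle or hypoxia isoforms were scarce in AT2 cells. Cox4i2, the oxygen-sensitive alternative to Cox4i1 described in lung, stood at 6.52 in IPKO and 7.53 in WT, Cox7a1 at 5.23 in IPKO and 5.80 in WT, and Cox6b2, the testis isoform, at 16.2 in IPKO and 17.6 in WT. Cox8b, the muscle counterpart of Cox8a, had 1 UMI in IPKO AT2 cells and 2 in WT AT2 cells, so of the muscle isoforms Cox6a2 alone reached the level of its common partner in these cells.

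**Figure D5:**
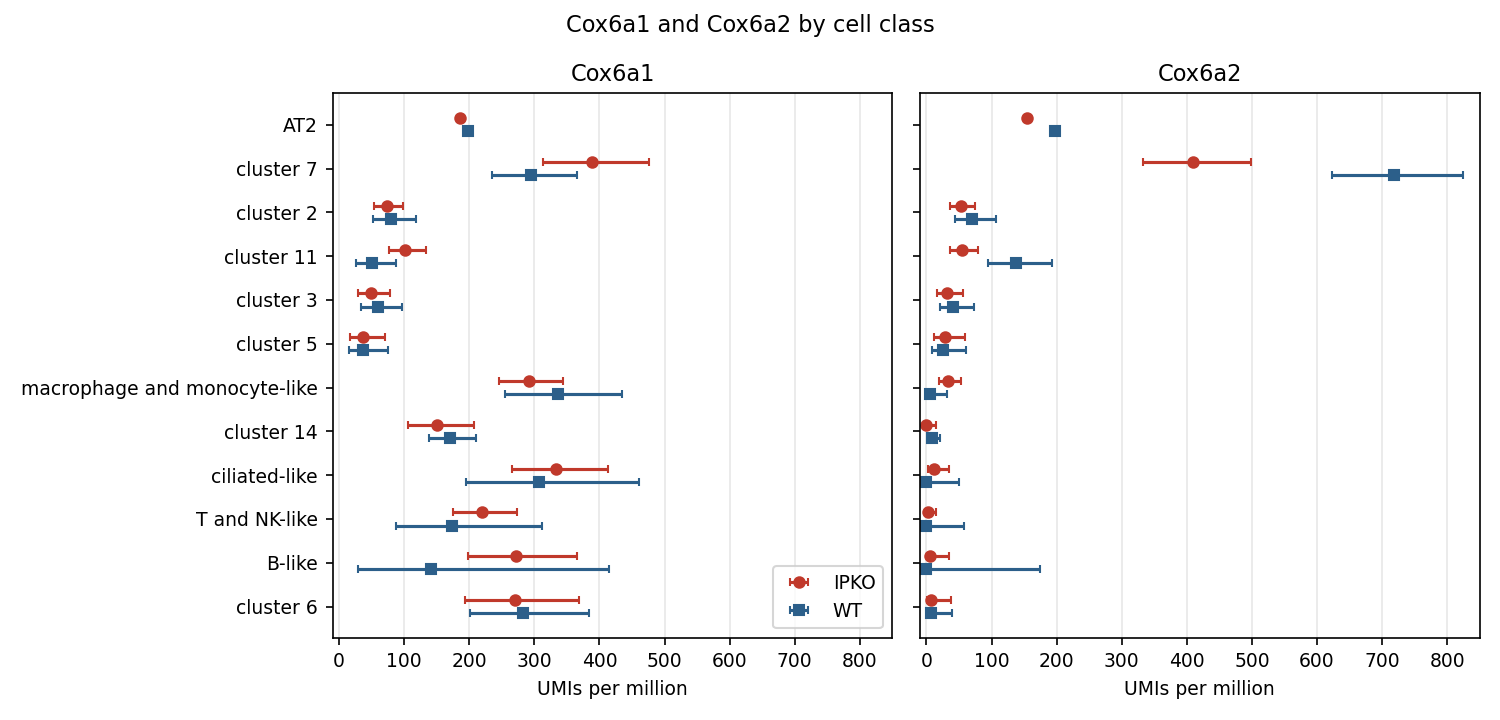
Cox6a1 (left) and Cox6a2 (right) in CPM by cell class, IPKO (red circles) above WT (blue squares), with 95% Poisson intervals. Cox6a1 is present in every class drawn, whereas Cox6a2 is at 154 and 197 in IPKO and WT AT2 cells, at 409 and 718 in cluster 7, and at or near 0 in T and NK-like, B-like and ciliated-like cells.

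Upstream of the nuclear members, the binding letters of factors known for this gene family were counted in RefSeq promoter windows of 300 bases (GRCm38.p6), which matched 73 of the 92. The NRF1 motif GCGCANGCG, on either strand, was in 21 of 73 (28.8%), against 6.47% of 27025 promoters. The GABP motif CCGGAAG was in 16 (21.9%), against 9.12%, the YY1 motif AAGATGGCG in 6 (8.22%), 5 of them in complex I, against 1.49%, and the motif of MEF2, a muscle factor, in 0, against 0.566%. Such matches are descriptions of letters and show no binding. The 250 bases upstream of the start are shown for Cox6a1, which holds NRF1 and GABP letters, and for the 4 nuclear members past the threshold in AT2 cells that the table holds, with motif letters in capitals, 5' to 3' on the strand of the gene: chr5:115348959-115349208 (minus) for Cox6a1, chr4:24897833-24898082 (plus) for Ndufaf4, chr15:82354292-82354541 (minus) for Ndufa6, chr17:83514334-83514583 (minus) for Cox7a2l and chr7:3617123-3617372 (plus) for Ndufa3.
Cox6a1: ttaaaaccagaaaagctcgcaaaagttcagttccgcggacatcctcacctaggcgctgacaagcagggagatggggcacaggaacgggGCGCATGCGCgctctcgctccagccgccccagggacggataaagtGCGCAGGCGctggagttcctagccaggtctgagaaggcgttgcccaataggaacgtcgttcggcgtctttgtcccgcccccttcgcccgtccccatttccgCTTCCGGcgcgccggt
Ndufaf4: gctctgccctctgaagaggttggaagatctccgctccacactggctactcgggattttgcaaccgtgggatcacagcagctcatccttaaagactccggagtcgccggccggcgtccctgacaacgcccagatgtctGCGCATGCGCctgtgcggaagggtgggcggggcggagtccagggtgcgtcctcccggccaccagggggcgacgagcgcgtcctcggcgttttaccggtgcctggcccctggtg
Ndufa6: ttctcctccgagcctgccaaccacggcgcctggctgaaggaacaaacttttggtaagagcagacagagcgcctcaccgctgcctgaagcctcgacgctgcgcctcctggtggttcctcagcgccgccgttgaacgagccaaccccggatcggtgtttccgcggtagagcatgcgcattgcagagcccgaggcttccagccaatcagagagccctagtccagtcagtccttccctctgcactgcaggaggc
Cox7a2l: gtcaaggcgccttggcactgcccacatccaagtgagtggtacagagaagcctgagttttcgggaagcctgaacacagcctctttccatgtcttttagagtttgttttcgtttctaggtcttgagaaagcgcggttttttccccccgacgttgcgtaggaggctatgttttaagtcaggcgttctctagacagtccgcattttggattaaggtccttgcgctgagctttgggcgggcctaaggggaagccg
Ndufa3: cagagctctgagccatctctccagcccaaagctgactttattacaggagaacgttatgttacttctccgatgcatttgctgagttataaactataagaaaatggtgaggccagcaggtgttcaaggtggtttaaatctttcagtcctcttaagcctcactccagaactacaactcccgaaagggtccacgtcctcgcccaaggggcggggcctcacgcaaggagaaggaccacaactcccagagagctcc
The member furthest above its WT level, Ndufaf4, holds an NRF1 match, Ndufa6 holds one downstream of the stretch shown, and the windows of Cox7a2l and Ndufa3 hold none of the 4 motifs. The Cox7a2l stretch lies upstream of a RefSeq start but inside the gene as placed by GENCODE vM21 (chr17:83501918-83517330, minus strand). The letters upstream of that GENCODE start were not searched.

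Genes that serve the chain without being part of it were read as lists, in AT2 cells and as the ratio of the library labelled IPKO over that labelled WT. The mitochondrial ribosome, which translates the 13 mitochondrial mRNAs, had a median log2 ratio of 0.21 over 74 genes, beside 0.06 for all genes, with 13 higher (17.6%, against 8.4% of all genes) and 0 lower at the threshold of 0.32. Mrps26 stood at 34.6 CPM in IPKO and 25.5 in WT (0.44). The import machinery had a median of 0.16 over 16 genes with 2 higher (12.5%, against 8.4% of all genes). They were Tomm20, a receptor of the outer membrane, at 131 in IPKO and 91.2 in WT (0.53), and Timm10, a chaperone of the intermembrane space (0.42). The assembly factors of complex IV had a median of 0.18 over 17 with 1 higher (5.88%, against 8.4% of all genes), Cox18 (0.41). Carriers had a median of 0.22 over 5 with none past the threshold, Slc25a3, the phosphate carrier, at 0.26. The factors of mitochondrial DNA copying and transcription had a median of 0.00 over 14, and the citric acid cycle one of 0.01 over 13, with no gene of either past the threshold. Of 7 regulators of the nuclear subunits, 1 was lower (14.3%, against 4.74% of all genes) and 0 higher. It was Ppargc1a, a coactivator of mitochondrial gene programmes, at 5.55 in IPKO and 10.7 in WT (-0.95, interval -1.08 to -0.82). A single gene of so short a list shows no trait of the list. In other cells Ppargc1a was at 3.81 in IPKO and 9.04 in WT (-1.25, interval -2.30 to -0.23), where 15.2% of all genes measured were lower. It had few UMIs there and a wide interval, so this value adds little to the one in AT2 cells.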

How the data were processed

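RNA of single sorted mouse lung cells was measured in 1 IPKO library and 1 WT library. The deposited values are whole-number UMI counts per gene and barcode, made by the authors with Cell Ranger 4.0.0 and GRCm38 (mm10), per the submitters' processing notes; the annotation release and the use of strand in counting are not given in the sources used here. Counts were summed per library over AT2 cells (Sftpc at 10% or more of UMIs) and over other cells, after barcodes with fewer than 500 genes or over 20% mitochondrial UMIs were left out, and divided by the sum to give counts per 1000000 UMIs (CPM). Each difference is a log2 ratio of such sums with an exact conditional binomial interval, each level has an exact Poisson interval and each share a Clopper-Pearson interval, all at 95%. With 1 library per genotype no test was made, and the ratio code was tested on simulated data with known changes. The 13 and 92 members follow from the symbols; the members, the lists of related genes, the marker lists and the promoter motifs were chosen with earlier results of these data known. The text names all 13 mitochondrial members, the highest and lowest ratios and the most abundant nuclear members of each complex, and the tissue isoforms; the genes grouped by make-up and those near Ptgir were chosen after their values were seen. Other cells were clustered in scanpy 1.11.5 without the members (Leiden on 20 principal components of 2000 variable genes) and named where at least 3 markers of a type were among the 10 leading genes. No doublet caller was run; leaving out the 8% of cells with the most UMIs is an alternative. In all, 9 members overlap another listed gene on the same strand, among them Cox4i1 and Ndufb8, and their UMIs may be split; Ndufa3 overlaps Tfpt and Cox6a2 overlaps Itgad on the opposite strand. Gene positions are from GENCODE vM21, promoters from RefSeq. Python 3.11.15, numpy 2.4.6, scipy 1.17.1 and pandas 2.3.3 were used.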

Additional observations from a re-analysis of the deposited data

How the results depend on the processing

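Values are medians of log2 ratios, and a median over all mitochondrial or all nuclear members that is not given here stayed within the median counting interval of its value in the results; medians by complex and of related lists were not recomputed. The cause of the changes was not tested. The mitochondrial members in IPKO over WT AT2 cells stayed between -0.56 and -0.46, at -0.47 with at most 10% mitochondrial UMIs, -0.46 with Sftpc at 5% or more, -0.50 without mitochondrial UMIs in the totals, -0.51 without those and Sftpc, -0.54 with median-of-ratios factors, -0.55 with trimmed-mean factors, -0.49 with each cell weighted equally, -0.49 without the 8% of cells with the most UMIs, and -0.56 in cells of 4000 to 16000 UMIs, chosen after seeing the data. The nuclear members there were at 0.035 without mitochondrial UMIs and Sftpc, 0.00658 with median-of-ratios factors, -0.0016 with trimmed-mean factors and 0.11 in cells of 4000 to 16000 UMIs. The mitochondrial members in other cells were at -0.45 with no mitochondrial filter, -0.0072 with at most 10%, -0.29 and -0.38 with Sftpc at 5% and 15%, -0.39 without the deepest 8%, -0.50 in cells of 4000 to 16000 UMIs, and -0.32 without shared barcodes, an alternative also chosen after seeing the data. AT2 over other, the mitochondrial members in the IPKO and WT libraries were at -1.30 and -1.33 with no mitochondrial filter, 0.35 and 0.78 with at most 10%, -0.00231 and 0.11 with Sftpc at 5%, -0.44 and -0.20 without Sftpc, -0.48 and -0.22 without mitochondrial UMIs and Sftpc, -0.40 and -0.23 with median-of-ratios factors, -0.20 and -0.056 with trimmed-mean factors, -0.80 and -0.61 with cells weighted equally, -0.79 and -0.73 without the deepest 8%, -0.97 and -0.99 in cells of 4000 to 16000 UMIs, and 0.64 and 0.90 without clusters 2, 3, 5 and 11, left out after seeing the data. In the IPKO library alone they were at -0.70 with at least 1000 genes, -0.56 with Sftpc at 15% and -0.78 without mitochondrial UMIs, and in the WT library alone at -0.66 without shared barcodes. The nuclear members, AT2 over other, were at 0.23 and 0.50 in the IPKO and WT libraries with no mitochondrial filter, -0.30 and -0.23 with at most 10%, -0.27 and -0.068 with Sftpc at 5%, 0.35 and 0.45 without Sftpc, 0.32 and 0.43 without mitochondrial UMIs and Sftpc, 0.39 and 0.42 with median-of-ratios factors, 0.60 and 0.59 with trimmed-mean factors, 0.22 and 0.46 in cells of 4000 to 16000 UMIs, -0.44 and -0.34 without the 4 clusters, and 0.22 in the IPKO library with cells weighted equally. AT2 over other, the mitochondrial median thus turned above 0 in both libraries under the filter at 10% and without the 4 clusters, and in the WT library with Sftpc at 5%, and the nuclear median was below 0 in both libraries under these 3 settings. Over the alternatives at the threshold of 0.32, nuclear members past it in AT2 cells, IPKO over WT, numbered 2 to 6 higher and 2 to 3 lower; in other cells, 6 to 44 higher and 2 to 8 lower, with 1 to 13 mitochondrial members lower; and AT2 over other, 2 to 72 higher in either library, 1 to 54 lower in the IPKO library and 2 to 46 lower in the WT library. At 1.5-fold the nuclear counts were 0 higher and 0 lower in AT2 cells and 2 higher and 1 lower in other cells, with 0 mitochondrial members lower in other cells. Of the named members past the threshold, 0 of 18 in AT2 cells, IPKO over WT, took the other sign under some alternative, and 1 of 17 in other cells, Ndufaf1, at -0.28 with each cell weighted equally. Of those under it, 8 of 32 in AT2 cells and 19 of 30 in other cells did, among them Cox4i2 in AT2 cells (to 0.22) and mt-Nd6 (to 0.51), Sdha (to -0.46) and Ndufaf4 (to 0.39) in other cells. The shares over all genes were not recomputed under the alternatives. No paired analysis was possible because each genotype has 1 library. Members of few UMIs, such as Cox4i2 in other cells with 14 in IPKO and 6 in WT, cannot be ordered at this depth.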
